A study of Mus musculus with 6 samples.

Results

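The genes described here encode the integrins and the laminins, together with a few proteins named for the integrin tails they bind. They were chosen by a rule that reads only the symbol, from the integrin α and β series (Itga and Itgb) and the laminin α, β and γ series (Lama, Lamb and Lamc). The gene family itself was taken up with earlier results of these data known. The rule found 41 of the 29595 genes in the table: 18 integrin α chains, 9 integrin β chains, 11 laminin chains and 3 binding proteins. RNA was sequenced from TKPTS cells, which derive from mouse proximal tubule epithelium, 24 h after transfection. The Hnf3a group (3 libraries) received a pcDNA3.1 plasmid that carries Hnf3a with a Flag tag, and the pcDNA group (3 libraries) received pcDNA3.1-Flag without that insert. Both groups are therefore transfected cultures of 1 cell line, and neither is untransfected tissue. HNF3α, encoded by Foxa1, is a forkhead transcription factor, and the comparison asks which RNAs differ when it is expressed from the plasmid. The labels do not say whether the replicates were separate cultures, so p-values measure the spread between these libraries, which may be technical.

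Integrins are cell surface receptors made of 1 α and 1 β chain, and the pairing decides what the receptor holds on to. Laminins are trimers of an α, a β and a γ chain that form the sheet of the basement membrane under an epithelium, and in the kidney tubule this sheet is what the epithelial cells sit on. Some integrin chains (such as those for collagen, laminin and RGD-containing matrix proteins) are used by epithelial and connective tissue cells, while others are used by leukocytes to adhere to each other and to vessel walls, and the description below keeps these apart.

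The total estimated count per library lay between 60473818 and 71154667. Foxa1 stood at 334, 295 and 284 FPKM (fragments per kilobase of transcript, scaled to library size) in the Hnf3a libraries and at 9.49, 9.54 and 9.96 FPKM in the pcDNA libraries, so every library matched its label. All 9 epithelial markers, Epcam and Krt8 among them, were over the detection floor of 12 counts in every library. The proximal tubule markers were low. Of 13 listed, only 8 had deposited values, and 6 to 7 of these passed the floor in a library. Their summed level was 2.07 to 2.63 FPKM, and Slc5a2 passed the floor in none. Hnf3a replicates 2 and 3 stood apart from the other libraries in markers of other cell types. Fibroblast markers summed to 8.24 and 10.1 FPKM in these libraries, with 11 of 12 over the floor, against 0.284 FPKM (5 of 12) in Hnf3a replicate 1 and 0.214 to 0.313 FPKM (2 to 4 of 12) in the pcDNA libraries. Col1a1, a fibroblast collagen chain, was counted 2694 and 3099 times in these libraries, 33 times in Hnf3a replicate 1, and 0, 16 and 5 times in the pcDNA libraries. Muscle markers over the floor numbered 7 of 8 in Hnf3a replicates 2 and 3, 4 in Hnf3a replicate 1 and 2 to 3 in the pcDNA libraries, and endothelial markers 5 to 6 of 8 in the Hnf3a libraries against 3 to 4. Leukocyte markers are given beside the leukocyte integrins below.

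Levels in these cells spanned from chains among the most abundant RNAs to chains listed at 0 (the plot of levels by gene). Itga3 and Itgb1, which encode the chains of the laminin receptor α3β1, were the most abundant α and β chains. Itga3 made up 78.3% ± 0.174 (SD, n = 3) of the summed α chain FPKM in the Hnf3a group and 75.2% ± 0.730 in the pcDNA group. Itgb1 made up 80.1% ± 0.272 and 80.2% ± 0.489 of the summed β chain FPKM. Among laminin α chains, Lama5 made up 92.0% ± 0.144 and 91.8% ± 0.102 of the FPKM. On mean FPKM, Itga3, Itgb1 and Lama5 stood at percentiles 98.7, 98.5 and 97.0 of all genes tested. In contrast, no leukocyte or platelet chain had a mean over all 6 libraries above 0.504 FPKM, the value of Itga2b.

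**Figure D1:**
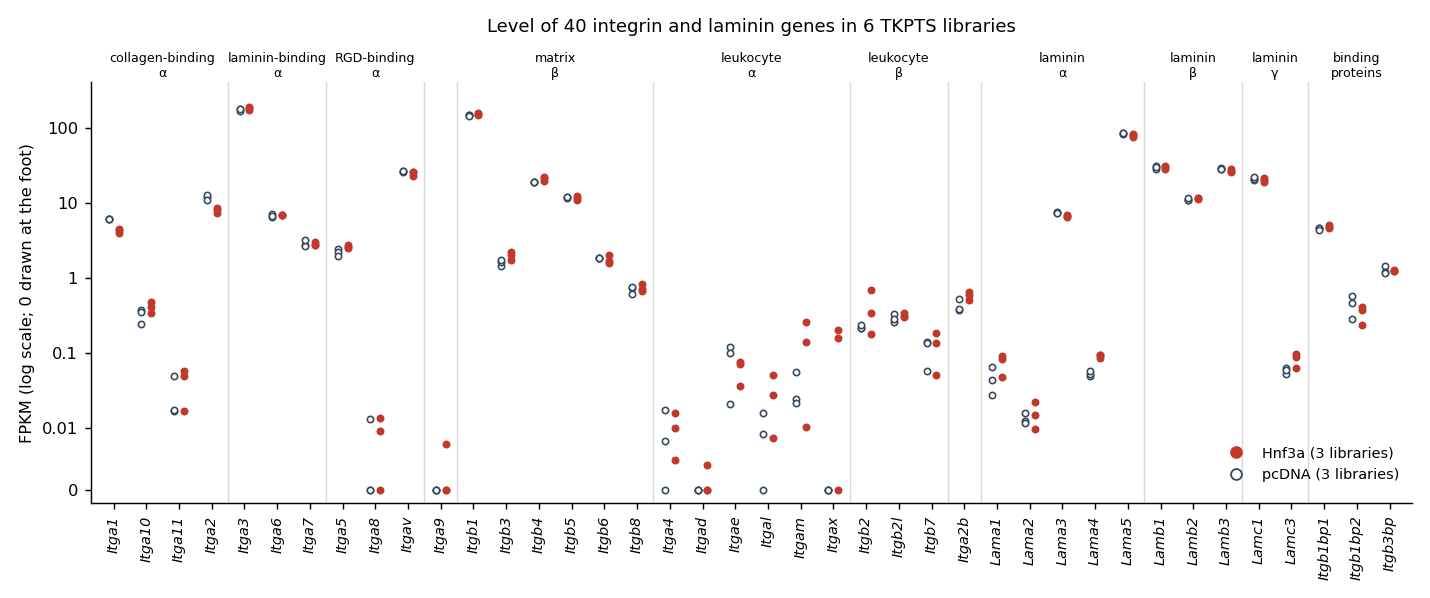
FPKM on a log axis (0 drawn at the foot) of 40 of the integrin and laminin genes, with 1 point per library, open for pcDNA and filled for Hnf3a, grouped by the ligand or chain class. The unlabelled narrow columns hold Itga9, which pairs with Itgb1, and Itga2b, the platelet chain. Itga3, Itgb1 and Lama5 lie near 100 FPKM or above, the leukocyte chains below 1 FPKM.

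Of the 41 genes, 36 had enough counts to be tested. By edgeR's quasi-likelihood test with Benjamini-Hochberg adjustment over all genes, 3 of the 36 passed an adjusted p of 0.05, where 3.17% of all tested genes passed (565 of 17824). All 3 fell: Itga1, Itga2 and Lama3, where 2.13% of all genes passed in that direction. None of the 36 rose by this test (1.04% of all genes did). Without adjustment, 14 of the 36 were under p 0.05, 8 with a higher and 6 with a lower level in Hnf3a cells, where 13.5% of all genes were. In 12 of the 36 the groups did not overlap in counts scaled to library size (CPM), where 18.9% of all genes did not. The median log2 fold change was 0.08 over the 36 and 0.00085 over all genes tested. Leaving out Hnf3a replicate 1 raised the count of genes past the threshold from 3 to 6, adding Lama5, Itgam and Itgax. Itgax entered that fit only through the Hnf3a libraries where it was high. Itgam was over the floor only in those libraries and in pcDNA replicate 2. DESeq2 raised it to 5, with Itgb4 among those added.

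**Figure D2:**
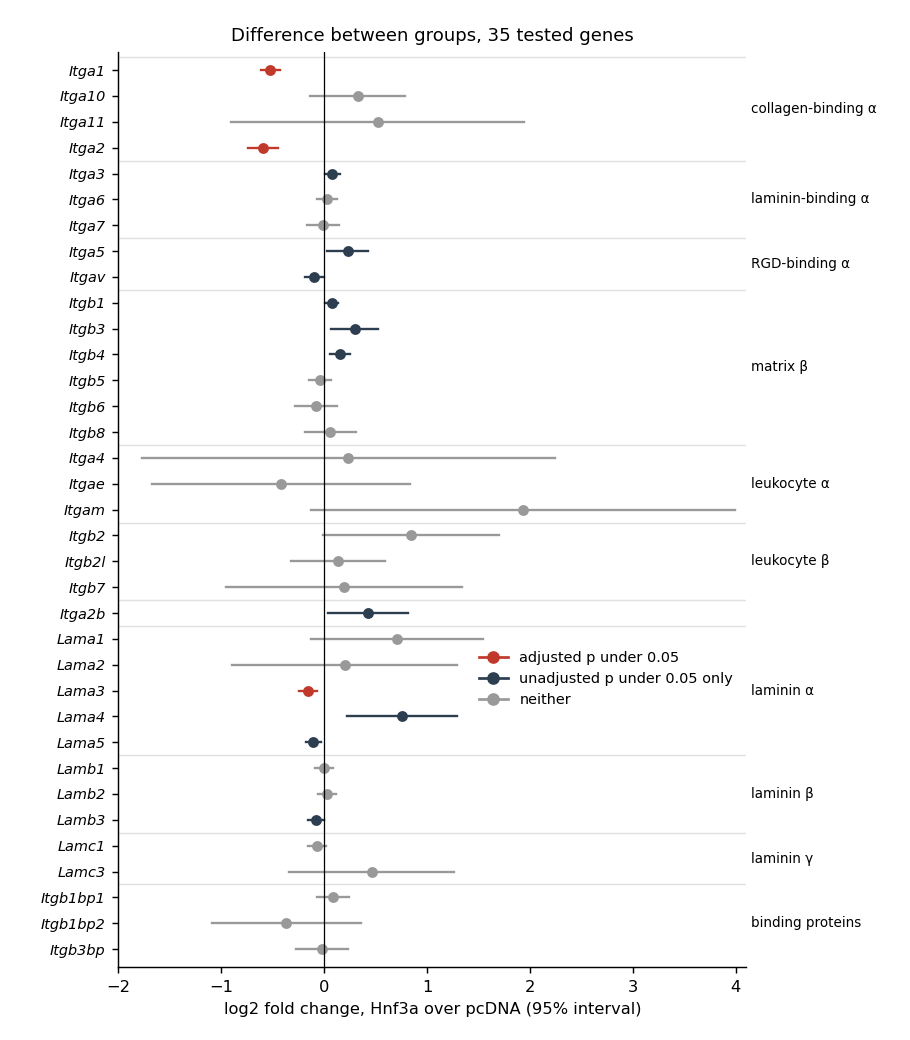
Log2 fold change of Hnf3a over pcDNA with its 95% interval for 35 of the tested genes, from edgeR's quasi-likelihood fit, coloured by whether adjusted p, only unadjusted p, or neither was under 0.05. Itga1 and Itga2 lie near -0.5 to -0.6 with narrow intervals, and the leukocyte chains Itgam and Itga4 have the widest intervals, which include 0.

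The collagen receptors showed the clearest difference. Itga1 and Itga2 encode the α chains that pair with Itgb1 to bind collagen, Itga1 with a preference for the basement membrane type and Itga2 for the fibrillar types. Itga1 stood at 4.355, 4.44 and 3.93 FPKM in Hnf3a replicates 1 to 3 and at 6.06, 6.07 and 6.05 FPKM in pcDNA replicates 1 to 3. The highest Hnf3a library was thus below every pcDNA library, and the pcDNA libraries lay almost on 1 value. Itga1 fell by 30.4% (log2 fold change -0.52, 95% interval -0.62 to -0.43, edgeR adjusted p = 8.71e-06). Itga2 stood at 8.46, 7.94 and 7.32 FPKM in the Hnf3a libraries and at 12.03, 12.8 and 10.85 FPKM in the pcDNA libraries. Again the groups did not overlap, with the lowest pcDNA library above all 3 Hnf3a libraries. Itga2 fell by 33.8% (log2 fold change -0.59, 95% interval -0.74 to -0.45, edgeR adjusted p = 0.000378). Both remained past the threshold in all 17 alternative fits, with log2 fold changes from -0.55 to -0.43 for Itga1 and from -0.66 to -0.49 for Itga2. In bulk RNA, fewer cells carrying a transcript and less of it per cell cannot be told apart.

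**Figure D3:**
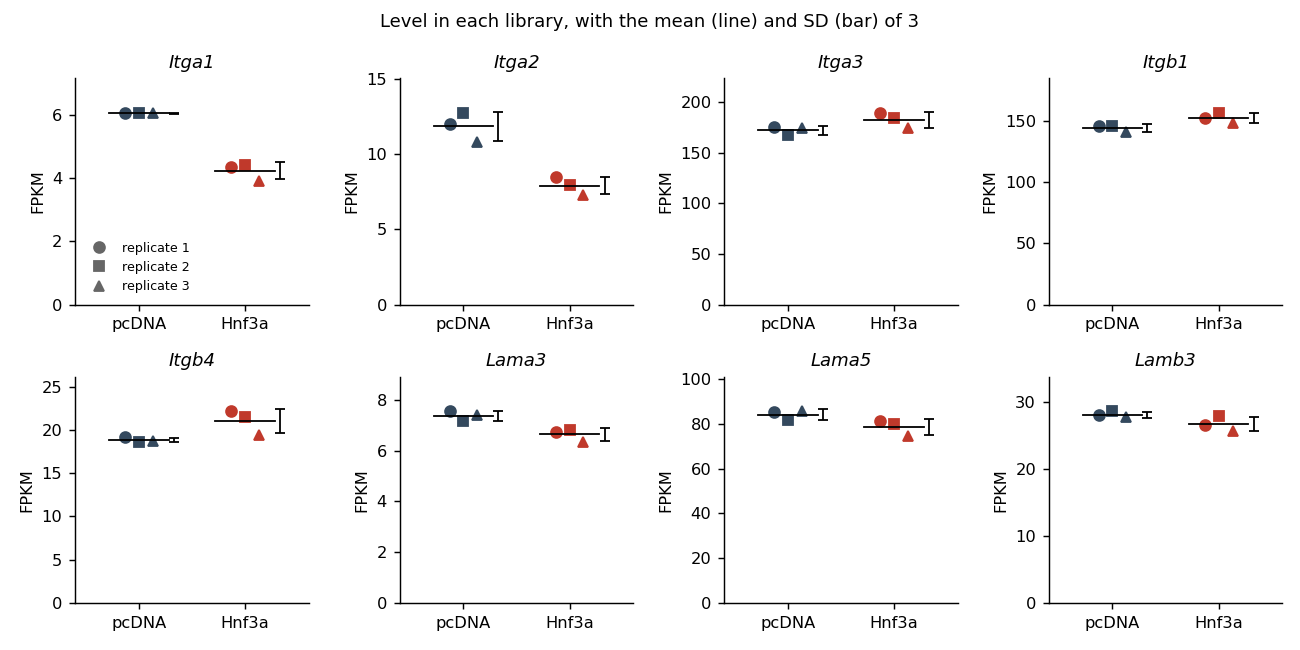
FPKM per library (circle, square and triangle for replicates 1, 2 and 3) of 8 integrin and laminin genes in the pcDNA and Hnf3a groups, with the mean as a line and the SD of 3 libraries as a bar, each axis starting at 0. Itga1 and Itga2 are lower in all 3 Hnf3a libraries, while Itga3, their more abundant relative, overlaps between groups.

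The remaining collagen-binding α chains were rare and did not pass the test. Itga10, a chain known from cartilage, had a mean of 0.409 FPKM in the Hnf3a group and 0.322 FPKM in the pcDNA group (log2 fold change 0.33, 95% interval -0.13 to 0.79). Itga11, a chain of fibroblasts, had 7, 24 and 19 counts in the Hnf3a libraries against 18, 7 and 7 in the pcDNA libraries (log2 fold change 0.52, 95% interval -0.90 to 1.94), and its groups overlapped. The 4 chains together made up 5.40% ± 0.120 of the α chain FPKM in the Hnf3a group and 7.99% ± 0.495 in the pcDNA group. Their summed level was 12.6 ± 0.813 FPKM against 18.3 ± 0.929 FPKM. For both quantities the exact two-sided permutation test gave p = 0.1, the smallest that 3 libraries against 3 can give. Itga1 and Itga2, already apart above, make up most of both quantities, so this result adds no support to their calls. The ratio of Itga2 to Itga1 FPKM was 1.87 ± 0.0763 and 1.96 ± 0.157 (exact permutation p = 0.4), so the pair changed by amounts that these libraries did not separate.

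Itga2 and Itga1 are neighbours on the minus strand of chromosome 13 (GRCm38). Itga2 (ENSMUSG00000015533) spans chr13:114833081-114932100 and Itga1 (ENSMUSG00000042284) spans chr13:114953096-115101964, with 21.0 kb between them. The annotated Itga2 gene overlaps no other gene, whereas Itga1 contains Pelo and Gm49395 on the same strand and Gm10734 on the opposite strand. The deposited values do not say whether counting used strand, so reads in these overlaps are uncertain. Pelo, a ribosome rescue factor that lies within Itga1, had a mean of 20.2 FPKM in the Hnf3a group and 20.5 FPKM in the pcDNA group (log2 fold change -0.03, 95% interval -0.13 to 0.08). Mocs2, a molybdenum cofactor gene on the other side of Itga2, differed by -0.13 on the log2 scale (95% interval -0.25 to -0.02, edgeR adjusted p = 0.26). Neither of these protein-coding neighbours passed the threshold. Gm49395 had a wide interval, from -0.81 to 0.50 on the log2 scale. Gm10734 had 98, 123 and 60 counts in the Hnf3a libraries against 180, 143 and 230 in the pcDNA libraries, with no overlap. Gm10734 fell by 1.07 on the log2 scale (95% interval -1.62 to -0.52, edgeR adjusted p = 0.037). The 3 other genes within 150 kb were too low to test. Thus the collagen receptor pair and Gm10734 passed the threshold at this locus, and Pelo, inside Itga1, did not.

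The sequences upstream of these collagen receptor genes are shown because Itga1 and Itga2 fell together while Itga10, a rarer relative, did not pass the test. Each line gives the 250 bases before the RefSeq start of the gene (GRCm38.p6), read along the gene's strand. The windows are chr13:115101965-115102214 (minus strand) for Itga1, chr13:114932101-114932350 (minus strand) for Itga2 and chr3:96645334-96645583 (plus strand) for Itga10. Capitals mark letters that match TNTTTNC on either strand, a loose form of the forkhead motif.
Itga1: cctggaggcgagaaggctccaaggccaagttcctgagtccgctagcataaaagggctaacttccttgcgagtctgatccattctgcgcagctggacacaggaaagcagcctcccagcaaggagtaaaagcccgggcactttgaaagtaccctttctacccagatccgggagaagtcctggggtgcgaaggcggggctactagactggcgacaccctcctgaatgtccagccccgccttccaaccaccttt
Itga2: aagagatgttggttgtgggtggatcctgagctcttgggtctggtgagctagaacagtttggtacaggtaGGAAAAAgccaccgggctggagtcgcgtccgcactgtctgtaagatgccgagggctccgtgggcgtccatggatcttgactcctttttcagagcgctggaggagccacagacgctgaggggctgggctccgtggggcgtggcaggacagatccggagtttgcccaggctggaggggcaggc
Itga10: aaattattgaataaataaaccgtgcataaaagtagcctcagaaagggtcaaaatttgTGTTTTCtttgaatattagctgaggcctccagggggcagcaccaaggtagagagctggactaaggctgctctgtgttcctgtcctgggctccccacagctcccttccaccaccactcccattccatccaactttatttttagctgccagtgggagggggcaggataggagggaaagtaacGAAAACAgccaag
The Itga1 window held 0 such matches, the Itga2 window 1 and the Itga10 window 2. The strict spelling TGTTTAC and its variant TATTTAC, as well as the further variants TGTTTGC, closely related, and lastly TATTTGC, all contained in TNTTTNC, occurred in none of these windows. Windows for 26 of the 41 genes were at hand, 29 windows in all. TNTTTNC was present in 14 of the 29 and in 48.1% of all 32851 windows of the same length. The strict spellings were present in 0 of the 29, against 11.9% of all windows, and TGTTTAC alone in 0 of the 29, against 3.17%. A match to these letters is a description of the window only, and its absence says nothing of sites elsewhere.

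The laminin-binding integrins, which anchor the epithelium to its basement membrane, did not pass the adjusted threshold. Itga3 stood at 189, 185 and 174 FPKM in the Hnf3a libraries and at 175, 167 and 174 FPKM in the pcDNA libraries. Hnf3a replicate 3 fell among the pcDNA libraries, so the groups overlapped (log2 fold change 0.08, 95% interval 0.01 to 0.15, edgeR adjusted p = 0.313). Itga6, the α chain of the hemidesmosome receptor, had means of 6.89 and 6.73 FPKM (log2 fold change 0.02, 95% interval -0.07 to 0.12). Itga7, a chain best known from muscle, had means of 2.84 FPKM in both groups (log2 fold change -0.01, 95% interval -0.17 to 0.14). For Itga6 and Itga7, differences beyond these intervals, that is beyond 0.17 on the log2 scale, lie outside the 95% range of the fit.

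Among the β chains of matrix receptors, Itgb1, Itgb3 and Itgb4 were higher in the Hnf3a group without adjustment only. Itgb1, the common partner of most matrix-binding α chains, stood at 153, 157 and 149 FPKM in the Hnf3a libraries and at 146, 146 and 141 FPKM in the pcDNA libraries. The groups did not overlap, but the difference was small (log2 fold change 0.07, 95% interval 0.01 to 0.14, edgeR adjusted p = 0.265). Itgb4, the partner of Itga6 in hemidesmosomes, stood at 22.1, 21.5 and 19.4 FPKM against 19.1, 18.6 and 18.7 FPKM. All 3 Hnf3a libraries were above the pcDNA libraries, with Hnf3a replicate 3 the nearest to them. Its log2 fold change was 0.15 (95% interval 0.06 to 0.25, edgeR adjusted p = 0.101), and it passed the threshold in 3 of the 17 alternative fits, among them DESeq2 (adjusted p = 0.0273) and the fit without Hnf3a replicate 3 (adjusted p = 0.0068). Itgb3, which pairs with αv to bind vitronectin and osteopontin, stood at 2.19, 2.02 and 1.73 FPKM against 1.45, 1.62 and 1.74 FPKM. Hnf3a replicate 3 lay just under the highest pcDNA library (log2 fold change 0.29, 95% interval 0.07 to 0.52, edgeR adjusted p = 0.202). Itgb5, Itgb6 and Itgb8, which also pair with αv, had log2 fold changes of -0.04, -0.08 and 0.06, with intervals that all include 0.

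Ratios within the matrix class pairs overlapped between the groups. The ratio of Itga3 to Itgb1 FPKM was 1.20 ± 0.0379 in the Hnf3a group and 1.20 ± 0.0480 in the pcDNA group (exact permutation p = 0.9). The ratio of Itga6 to Itgb4 FPKM was 0.329 ± 0.0260 and 0.358 ± 0.0261 (exact permutation p = 0.3). These are ratios of RNA levels, not of receptors at the cell surface.

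The RGD-binding α chains, which recognise a short peptide in fibronectin and vitronectin, were apart between groups in opposite directions but did not pass the adjusted threshold. Itgav was the more abundant, at 25.8, 25.4 and 22.9 FPKM in the Hnf3a libraries and 26.6, 25.9 and 26.2 FPKM in the pcDNA libraries (log2 fold change -0.10, 95% interval -0.18 to -0.01, edgeR adjusted p = 0.322). Itga5, the fibronectin receptor chain, stood at 2.59, 2.71 and 2.52 FPKM against 2.43, 2.23 and 1.96 FPKM (log2 fold change 0.23, 95% interval 0.03 to 0.43, edgeR adjusted p = 0.27). Itga8, known from kidney mesenchyme, had at most 8 counts in any library, and Itga9 at most 4. Both were under the floor of 12 counts everywhere and were not tested. In all, 2 of the 15 tested genes of the matrix class passed the threshold, both lower, beside 3.17% of all genes (2.13% lower), and 5 higher and 3 lower were under an unadjusted p of 0.05, beside 13.5% of all genes.

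The 11 laminin chains were all tested, and Lama3 alone passed the threshold, beside 3.17% of all genes (2.13% lower). Lama3 and Lamb3 encode chains of the laminin of hemidesmosomes. Lama3 (ENSMUSG00000024421), on chromosome 18, stood at 6.74, 6.82 and 6.35 FPKM in the Hnf3a libraries and at 7.55, 7.18 and 7.38 FPKM in the pcDNA libraries, without overlap. Lama3 fell by 10.46% (log2 fold change -0.16, 95% interval -0.24 to -0.07, edgeR adjusted p = 0.0468). This call was lost in 13 of the 17 alternative fits, where the adjusted p reached up to 0.305 and the direction stayed negative. Leaving out any 1 of the other 5 libraries ended it, while leaving out Hnf3a replicate 1 did not (adjusted p = 0.0451).

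Lamb3 stood at 26.7, 27.9 and 25.7 FPKM in the Hnf3a libraries and at 28.1, 28.7 and 27.8 FPKM in the pcDNA libraries (log2 fold change -0.08, 95% interval -0.16 to -0.01, edgeR adjusted p = 0.315). In FPKM the highest Hnf3a library, replicate 2, lay just over the lowest pcDNA library, so the groups overlapped slightly on that scale.

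Lama5, Lamb1, Lamb2 and Lamc1 encode the chains of the laminins of adult basement membranes, laminin-511 and laminin-521. Lama5 stood at 81.3, 80.1 and 74.9 FPKM in the Hnf3a libraries and at 85.4, 81.7 and 85.7 FPKM in the pcDNA libraries, apart by a small margin (log2 fold change -0.11, 95% interval -0.18 to -0.03, edgeR adjusted p = 0.138). It passed the threshold only in the fit without Hnf3a replicate 1 (adjusted p = 0.0391). Lamb1, the most abundant β chain, stood at 31.0, 29.6 and 28.4 FPKM against 28.2, 30.7 and 29.5 FPKM. These libraries were interleaved, and the log2 fold change of -0.0011 (95% interval -0.09 to 0.08) changed sign with the scaling. Lamb2 had means of 11.3 and 11.1 FPKM (log2 fold change 0.03, 95% interval -0.06 to 0.11). Lamc1, the most abundant γ chain, stood at 21.1, 19.8 and 19.1 FPKM against 20.1, 20.7 and 21.8 FPKM (log2 fold change -0.07, 95% interval -0.16 to 0.02). The ratio of Lamc1 to Lama5 FPKM was 0.254 ± 0.00661 and 0.248 ± 0.0104 (exact permutation p = 0.5).

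Lama1, Lama2, Lama4 and Lamc3 were present at low levels, with means of at most 0.0908 FPKM in either group. Lama4, a chain of endothelial and mesenchymal basement membranes, had 77, 94 and 85 counts in the Hnf3a libraries against 41, 49 and 53 in the pcDNA libraries. All 3 Hnf3a libraries were higher (log2 fold change 0.75, 95% interval 0.22 to 1.29, edgeR adjusted p = 0.156). The sum of fibroblast markers was high in Hnf3a replicates 2 and 3 only. Endothelial markers summed to 0.624 to 0.721 FPKM in the Hnf3a libraries and to 1.01 to 1.19 FPKM in the pcDNA libraries. Cdh5 was the largest part of that sum, at 0.349, 0.356 and 0.380 FPKM against 0.710, 0.904 and 0.924 FPKM. Tek and Vwf went the other way. Tek had 11, 15 and 16 counts against 0 in each pcDNA library, and Vwf had 21, 39 and 32 against 0, 14 and 4. The other endothelial markers did not separate the groups. The part of fibroblast or endothelial RNA in the Lama4 values was not tested. Lama1, a chain of embryonic and tubule basement membranes, had 34, 63 and 66 counts against 42, 20 and 31, with overlap (log2 fold change 0.70, 95% interval -0.13 to 1.54). Lama2 (12 to 28 counts) and Lamc3 (22 to 46 counts) also overlapped between groups. By chain class, the summed laminin α level was 85.6 ± 3.63 FPKM in the Hnf3a group and 91.8 ± 2.43 FPKM in the pcDNA group (exact permutation p = 0.1). Lama5, apart on its own above, makes up most of that sum, so the result is not separate from it. The β chains summed to 67.8 ± 2.24 and 68.7 ± 1.603 FPKM (exact permutation p = 0.6).

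Among the leukocyte integrins, Itgb2 and Itgb2l were over the floor in all 6 libraries and the other chains in 0 to 5. None of the 6 leukocyte chains tested passed the threshold, beside 3.17% of all genes. The class holds Itgal, Itgam, Itgax and Itgad, which pair with Itgb2 to form the β2 integrins of leukocytes. It also holds Itga4 and Itgae, which can pair with Itgb7, and Itgb2l, a relative of Itgb2. The group means concealed an uneven pattern within the Hnf3a group. Itgax, the dendritic cell and macrophage chain CD11c, was counted 0, 60 and 73 times in Hnf3a replicates 1, 2 and 3 and never in a pcDNA library. Itgam, the myeloid chain CD11b, had 4, 56 and 95 counts against 9, 21 and 8. Itgb2 had 40, 82 and 153 counts against 44, 48 and 53. In all 3 genes Hnf3a replicate 1 lay at or under the pcDNA level and Hnf3a replicates 2 and 3 above it. The log2 fold change was 1.93 for Itgam (95% interval -0.13 to 3.995, edgeR adjusted p = 0.412) and 0.84 for Itgb2 (95% interval -0.02 to 1.70, edgeR adjusted p = 0.384), and Itgax was removed by the filter on low counts.

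The remaining leukocyte chains were low or did not separate the groups. Itgal, the lymphocyte chain CD11a, had 4, 27 and 14 counts in the Hnf3a libraries against 5, 8 and 0, and was not tested. Itgad had 2 counts in Hnf3a replicate 1 and 0 elsewhere. Summed, the 4 α chains that pair with Itgb2 had 10, 143 and 182 counts in the Hnf3a libraries against 14, 29 and 8 in the pcDNA libraries (exact permutation p = 0.3). Hnf3a replicate 1 again lay among the pcDNA libraries. Itgb2l had 96, 116 and 101 counts against 96, 82 and 90 (log2 fold change 0.13, 95% interval -0.32 to 0.59), and Hnf3a replicate 1 equalled the highest pcDNA library. Itgae had 13, 26 and 26 counts against 39, 35 and 7, Itgb7 had 11, 31 and 40 against 27, 28 and 12, and Itga4 had 4, 11 and 17 against 0, 19 and 7. These last genes overlapped between groups. On the genome, Itgb2l overlaps Igsf5, Itgae overlaps Haspin and Itga4 overlaps Cerkl, each on the opposite strand. Whether counting used strand is not given, so reads in these stretches are uncertain.

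**Figure D4:**
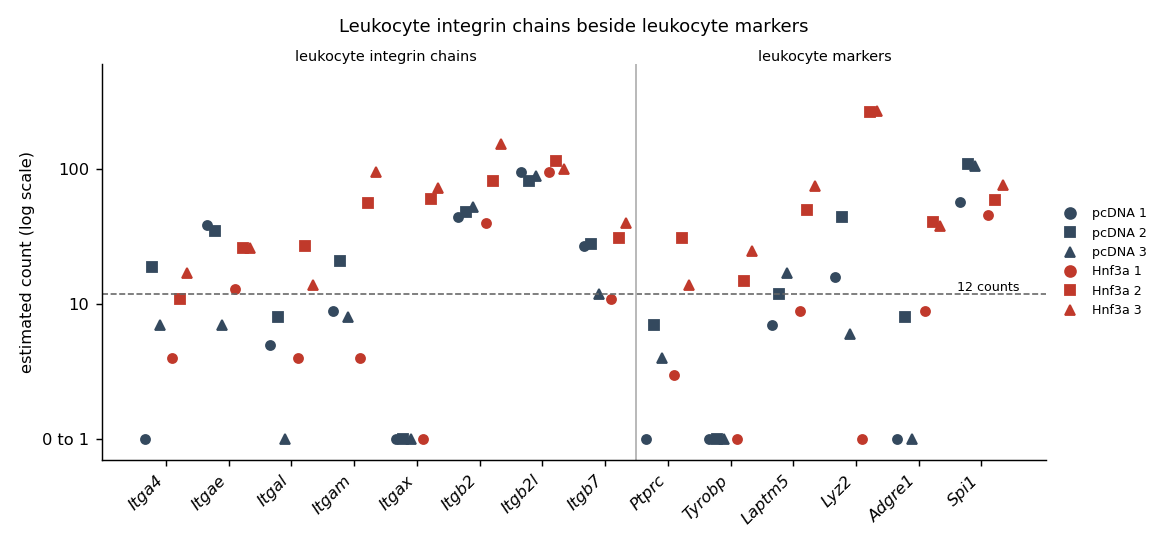
Estimated counts per library on a log axis (0 and 1 drawn at the foot) of 8 leukocyte integrin chains and 6 leukocyte markers, with the colour for the group and the shape for the replicate. The dashed line is the floor of 12 counts. Hnf3a replicates 2 and 3 lie above the other libraries for Itgax, Itgam, Itgb2, Tyrobp and Lyz2, while the groups meet at Itgb2l.

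Many but not all leukocyte markers followed the same libraries. In 12 of the 16 the FPKM of Hnf3a replicates 2 and 3 was above that of every other library, the exceptions being Cd14, Cd68, Coro1a and Spi1. Some margins were small: Csf1r had 1.861 and 1.964 FPKM there against 1.811 in Hnf3a replicate 1. Cd74 had 3.322 and 2.935 FPKM against 2.906 in pcDNA replicate 2. The share of all genes with this pattern was not counted. Over the floor were 9, 15 and 16 of the 16 markers in Hnf3a replicates 1, 2 and 3, and 9, 9 and 8 in the pcDNA libraries. Spi1, a myeloid transcription factor, had 46, 59 and 77 counts against 57, 109 and 106, and Coro1a, an actin regulator of leukocytes, had 145, 118 and 166 against 138, 116 and 135. The defining marker Ptprc (CD45) had 3, 31 and 14 counts in the Hnf3a libraries against 0, 7 and 4 in the pcDNA libraries. Tyrobp, a myeloid adaptor, had 0, 15 and 25 counts against 0 in every pcDNA library, and Lyz2, the macrophage lysozyme, had 0, 265 and 273 against 16, 44 and 6. Thus the libraries in which Itgax, Itgam and Itgb2 were high were those in which Tyrobp, Lyz2 and 11 of the 12 fibroblast markers, all except Mfap5, were above every other library. The summed level of the leukocyte list went the other way, at 39.0, 45.6 and 46.4 FPKM against 54.4, 52.7 and 55.5 FPKM. Cd14 and Cd68 made up most of it. Cd14 was lower in every Hnf3a library, at 21.95, 23.63 and 22.64 FPKM against 35.75, 34.77 and 39.23 FPKM. Cd68 overlapped between groups, at 11.16, 11.6 and 12.73 FPKM against 12.31, 11.64 and 10.81 FPKM. The part of these markers in the leukocyte integrin values was not tested. Without Hnf3a replicate 1, Itgam passed the threshold of edgeR's test (log2 fold change 2.47, adjusted p = 0.0128). Itgam was over the floor only in Hnf3a replicates 2 and 3 and in pcDNA replicate 2. That fit leaves out the Hnf3a library where Itgam was low, so the call is no separate support for a difference. With Hnf3a replicate 1 as the only Hnf3a library the log2 fold change of Itgam was -1.65. Itga1 and Itga2 were past the threshold with Hnf3a replicate 1 as the only Hnf3a library and without it. The matrix chain Itgb4 was past it with Hnf3a replicate 1 as the only Hnf3a library (log2 fold change 0.23, edgeR adjusted p = 0.01995) and not without that library (0.11, adjusted p = 0.247).

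Itga2b, the platelet chain αIIb, was the most abundant of the blood cell integrins, with 203, 286 and 242 counts in the Hnf3a libraries against 139, 157 and 216 in the pcDNA libraries. Hnf3a replicate 1 lay under the highest pcDNA library, so the groups overlapped (log2 fold change 0.43, 95% interval 0.04 to 0.82, edgeR adjusted p = 0.302). Of 6 platelet markers listed, only 4 had deposited values. Of these, Gp1ba was over the floor in each of the 6 libraries, with 33, 95 and 61 counts in the Hnf3a libraries against 36, 57 and 51. Pf4, Gp9 and Gp1bb were over it in none. Of all 10 leukocyte and platelet chains, 7 were tested. With all 6 libraries, 0 passed the adjusted threshold by edgeR, DESeq2 or limma, beside 3.17% of all genes by edgeR. Of the 7, 1, Itga2b, was under an unadjusted p of 0.05 by edgeR, beside 13.5% of all genes. Without Hnf3a replicate 1, edgeR called 2 chains, Itgam and Itgax, with the limits given above.

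The binding proteins share part of a name with the integrins but are not chains of a receptor. Itgb1bp1, which binds the tail of the β1 chain, had means of 4.80 and 4.50 FPKM (log2 fold change 0.08, 95% interval -0.07 to 0.24). Itgb1bp2, a muscle protein, had 32, 55 and 55 counts in the Hnf3a libraries against 56, 39 and 77 in the pcDNA libraries (log2 fold change -0.37, 95% interval -1.09 to 0.36). Itgb3bp, which is also a centromere protein, had means of 1.25 and 1.26 FPKM (log2 fold change -0.02, 95% interval -0.27 to 0.23). None passed the adjusted threshold by edgeR, DESeq2 or limma, or an unadjusted p of 0.05 by edgeR, beside 3.17% and 13.5% of all genes by edgeR.

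The partners of integrins and laminins were examined from lists drawn up with earlier results of these data known: 59 genes, of which 55 were tested and 10 passed the threshold, 6 higher and 4 lower, beside 3.17% of all genes. Among 23 tested intracellular adaptors that link integrins to actin, Tns3 alone passed, at 17.9, 16.9 and 16.5 FPKM in the Hnf3a libraries and 19.8, 20.04 and 20.4 FPKM in the pcDNA libraries. Tns3, a tensin that binds the tails of β chains, fell by 15.3% (log2 fold change -0.24, edgeR adjusted p = 0.00158). The most abundant adaptor, Actn4, had means of 102.3 and 101.6 FPKM (log2 fold change 0.0014, 95% interval -0.06 to 0.06). Of 6 hemidesmosome genes, 0 passed by edgeR, DESeq2 or limma and 0 were under an unadjusted p of 0.05 by edgeR. Cd151, the most abundant, had means of 32.7 and 31.6 FPKM (log2 fold change 0.04, 95% interval -0.05 to 0.13). Krt5 was uneven, with 7, 146 and 100 counts in the Hnf3a libraries against 13, 0 and 17 in the pcDNA libraries. Its log2 fold change was 2.94 (95% interval -0.64 to 6.52, edgeR adjusted p = 0.474), and Hnf3a replicate 1 lay among the pcDNA libraries.

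Of the laminin receptors other than integrins, Mcam and Bcam rose. Mcam, a surface adhesion molecule of the immunoglobulin family, stood at 4.64, 4.14 and 4.30 FPKM in the Hnf3a libraries and at 2.89, 3.04 and 3.37 FPKM in the pcDNA libraries, and it rose by 39.7% (log2 fold change 0.48, 95% interval 0.30 to 0.67, edgeR adjusted p = 0.00614). Bcam, a receptor for laminin α5, stood at 95.9, 93.9 and 100.9 FPKM against 84.2, 82.1 and 86.6 FPKM and rose by 14.2% (edgeR adjusted p = 0.00696). Rpsa, the most abundant of this list and also a ribosomal protein, had means of 354 and 349 FPKM (log2 fold change 0.01). So 2 of the 4 laminin receptors passed, both higher, where 1.04% of all genes passed in that direction. In FPKM, no library of one group overlapped with the other in Mcam or Bcam. In CPM the groups did not overlap in 3 of the 4, where 18.9% of all genes did not. Among 11 basement membrane genes, Npnt, a ligand of the kidney integrin α8β1, rose by 0.26 on the log2 scale (means 5.92 and 4.90 FPKM, edgeR adjusted p = 0.0342). Col4a1, the most abundant, had means of 76.7 and 71.7 FPKM (log2 fold change 0.09, 95% interval 0.02 to 0.16, edgeR adjusted p = 0.231).

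Among 11 tested integrin ligands, 6 passed the threshold, 3 in each direction, where 1.04% of all genes were higher and 2.13% lower. Spp1 (osteopontin), Tnc (tenascin C) and Thbs1 (thrombospondin), which are secreted matrix proteins, rose by 15.8%, 21.8% and 17.0%, with edgeR adjusted p-values of 0.00419, 0.00955 and 0.0413. Their means were 406 against 348 FPKM for Spp1, 21.8 against 17.8 FPKM for Tnc and 37.3 against 31.7 FPKM for Thbs1. Icam1, the surface ligand of leukocyte β2 integrins, stood at 4.89, 5.14 and 4.50 FPKM in the Hnf3a libraries and at 6.22, 6.28 and 6.48 FPKM in the pcDNA libraries. Icam1 fell by 23.8% (log2 fold change -0.39, 95% interval -0.52 to -0.26, edgeR adjusted p = 0.00226) and was past the threshold in all 17 alternative fits. Vcam1, a ligand of Itga4-containing integrins, stood at 14.8, 14.3 and 12.7 FPKM against 17.8, 18.1 and 15.9 FPKM and fell by 19.7% (edgeR adjusted p = 0.0331). In Icam1 and Vcam1 every Hnf3a library was below every pcDNA library. Ccn1, a matricellular protein bound by several integrins, had means of 360 and 397 FPKM and fell by 9.77% (edgeR adjusted p = 0.036). Tns3 passed in 16 alternatives, Mcam in 15, Bcam and Spp1 in 12, Tnc in 11, Vcam1 in 9, and Npnt, Thbs1 and Ccn1 in 8. The count over all partner genes dropped from 10 to between 2 and 6 when Hnf3a replicate 2 or any 1 pcDNA library was left out.

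**Figure D5:**
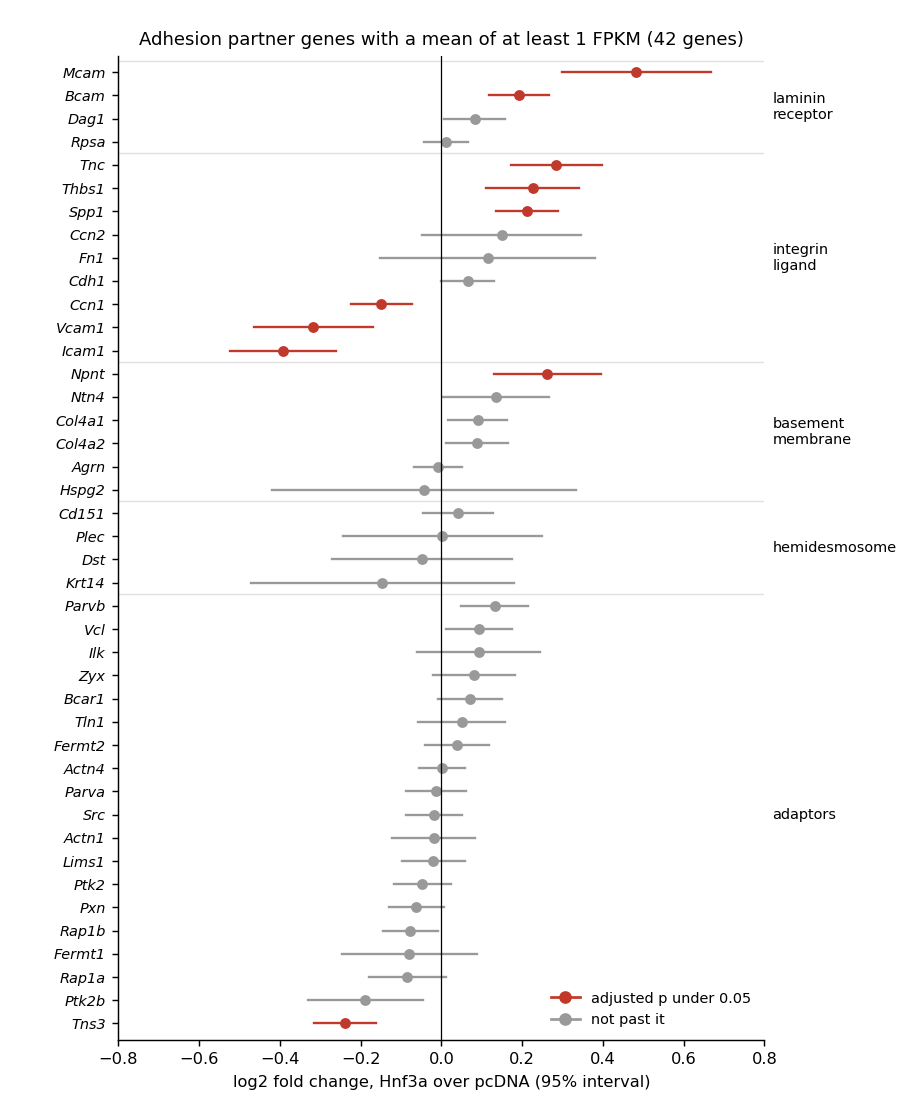
Log2 fold change of Hnf3a over pcDNA with its 95% interval for the 42 tested partner genes with a mean of at least 1 FPKM, grouped by list and coloured where the adjusted p was under 0.05. Of the genes drawn, Mcam has the highest value at 0.48 and Icam1 the lowest at -0.39, and most adaptors lie near 0. Krt5, with a mean under 1 FPKM, is not drawn.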

How the data were processed

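RNA from TKPTS cells, 3 Hnf3a and 3 pcDNA libraries, was purified by poly(A) selection and sequenced from both ends. Per the submitters' processing notes, cutadapt 1.9, HISAT2 2.0.4, UMI-tools, StringTie 1.3.4d, DESeq2 and edgeR were used with build mm10; parameters and the use of strand are not given in the sources used here. The authors deposited an estimated count and an FPKM value for each gene and library. More genes sat at 4 counts than at 3 or 5 (1148 against 680 and 378 in Hnf3a replicate 1), so 1 fragment was taken as up to 4 counts and the floor as 12 counts, about 3 fragments or 0.169 to 0.198 CPM. Floors cover counting error only.

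Here, the deposited estimated counts, which were whole numbers, were filtered with filterByExpr, scaled by TMM and tested two-sided with edgeR 4.0.16 in R 4.3.3 (glmQLFit with robust = TRUE, glmQLFTest), without a covariate, with Benjamini-Hochberg adjustment over 17824 genes and a threshold of 0.05. Ratios and sums used the deposited FPKM and an exact permutation test. The procedure was tested on simulated data. Alternatives were DESeq2 1.42.0, limma 3.58.1 on log2(FPKM + 0.1), with pseudocounts of 1 and 0.01 also tried, other scalings and filters, counts divided by 4, a log2 fold change of at least 1, a replicate block, and fits without libraries. Coordinates are those of the table, identical to GENCODE vM21 (GRCm38) for 26729 of 29514 shared genes, and upstream sequences are from RefSeq.

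The genes and lists were chosen with earlier results of these data known. Values per library are given for members past the adjusted or an unadjusted p of 0.05, for the most abundant member of each role, and for partner genes past the threshold or most abundant in their list. The leukocyte chains, Itga10, Itga11, Itgb1bp2, Lama1 and the genes beside Itga1 and Itga2 were given values after these had been seen. The same holds for Krt5, Cdh5, Tek, Vwf, Cd14, Cd68, Gp1ba, Csf1r and Cd74. The values of 1 laminin gene are not reported here.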

Additional observations from a re-analysis of the deposited data

How the results depend on the processing

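The replicate numbers did not pair the libraries: deviations of same-numbered libraries correlated at -0.0411, -0.0102 and 0.00998, and not every library correlated best with its own number. With the replicate number as a block, 463 genes passed in place of 565, with 2 of the 41 genes described here, 2 matrix integrins, 0 laminins, 0 leukocyte chains and 9 partner genes.

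Over all genes, limma with pseudocounts of 0.1, 1 and 0.01 FPKM called 236, 231 and 245, Hnf3a replicate 1 as the only Hnf3a library (its spread assumed to be that of the pcDNA libraries) 322, a log2 fold change of at least 1 left 79, and fits without 1 library called 263 to 643. Of the members, DESeq2 called 5, the fold threshold 0 and fits without 1 library 2 to 6. The count of matrix integrins was 0 with the fold threshold. Leukocyte chains numbered 0 to 2 in fits without 1 library, the 2 being Itgax and Itgam without Hnf3a replicate 1. Itgax entered that fit only through the Hnf3a libraries where it was high, and Itgam was over the floor only in those and in pcDNA replicate 2. Laminins numbered 2 by DESeq2, 0 with DESeq2 size factors, total count scaling, no filter, each limma fit, the block, Hnf3a replicate 1 alone or the fold threshold, and 0 to 2 without 1 library. Partner genes numbered 3 in each limma fit, 0 with the fold threshold and 2 to 11 without 1 library. The fold threshold leaves them out by construction, and the other causes were not tested.

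Among the tested members, 12 changed sign in some alternative, none of them past the threshold where the sign was turned. Lamb1 gave 0.000408 (DESeq2), 0.000455 (size factors), 0.0105 (total count), 0.00262 (no filter), 0.00458 (FPKM filter), 0.0069, 0.0067 and 0.00692 (limma with 0.1, 1 and 0.01), 0.000305 (counts divided by 4) and 0.0723 (Hnf3a replicate 1 alone). In that last fit Itgb2 was -0.30, Itgb7 -1.05, Lama2 -0.50, Itga7 0.0718, Lamc1 0.017, Itga4 -1.09, Itgam -1.65 and Itga11 -0.65. Without 1 library, Itgb8 ranged from -0.0281 to 0.12, Lamb1 from -0.0394 to 0.0316, Itga7 from -0.0563 to 0.0667, Itgb7 from -0.22 to 0.55, Lama2 from -0.12 to 0.45, Itga4 from -0.33 to 1.496, Itga6 from -0.00894 to 0.0734 and Itgb3bp from -0.0763 to 0.0787. Low counts limit the leukocyte chains: Itgam rested on 4 to 95 counts a library.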
